A study of Glycine max with 46 samples.

Results

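The comparison of 27 h with 16 h after imbibition covers 13 of the 46 RNA-seq libraries of a soybean seed time course, taken as the libraries that the labels place at these times. Imbibition is the uptake of water by a dry seed. All groups are whole seeds of Glycine max, genotype Williams 82, the labels name no treatment other than the stage, and plants were kept at 22 °C with 16 h of light and 8 h of dark. The 16 h group has 3 biological replicates with 6 sequencing runs and the 27 h group has 3 with 7 runs. The 5 other stages (3 h after imbibition, dry seed, and desiccation at an early, a mid and a late point) were used here only to describe the genes that changed. The labels do not say how many seeds made up a replicate, and p-values measure the spread between these replicates.

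A seed that dries on the mother plant stores messenger RNA along with protein and oil reserves. When it takes up water, it resumes respiration and protein synthesis, first with help from stored transcripts. New transcripts then accumulate as the embryonic axis elongates and reserves begin to be broken down, so this interval is commonly described as the passage from a seed programme to a seedling programme.

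The runs of a replicate together held 44.9 to 86.5 M reads. Single runs held 6.25 to 80.1 M, and their values were averaged within a replicate with equal weight. Values are normalized counts, that is, reads per gene divided by a size factor for the library. In these 13 libraries 1 read was worth 0.173 to 2.25 normalized counts. Replicates of a stage resembled each other more than they resembled the other stage. On the log2 scale Pearson's r across the 32801 genes tested was 0.971 to 0.974 among the 16 h replicates, 0.958 to 0.973 among the 27 h replicates and 0.782 to 0.842 between the stages. These values are across genes of single libraries, and genes are not independent replicates. Replicate 2 of each stage held more signal in quiet genes than the others did. Over 8047 genes whose mean was below 2 at both stages it stood at 1.09 at 16 h, against 0.303 and 0.341 in replicates 1 and 3, and at 1.22 at 27 h, against 0.572 and 0.357. The deposited table names genes by ID only, and none of its 54175 IDs (0 matched) was found among the 59048 genes of the Glycine_max_v4.0 reference table. Gene products are therefore not given, the labelled tissue could not be checked against marker genes, and 2 IDs that rose and 2 that fell are printed.

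Between 16 h and 27 h the transcripts that had dominated the seed fell steeply, and many low ones rose. Of the genes tested, 12795 of 32801 changed, which is 39.0%. Of all genes tested, 8378 (25.5%) rose and 4417 (13.5%) fell. A gene was tested when it reached at least 10 normalized counts in at least 3 of the 6 replicates. It was called with limma on log2(value + 1) where the stages differed 2-fold or more with a Benjamini-Hochberg adjusted p under 0.05. This scale understates changes of low genes. A further 7407 genes had an adjusted p under 0.05 with a smaller change, and 12599 had an adjusted p of 0.05 or more. In bulk RNA, fewer cells of a type and less RNA per cell cannot be told apart.

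More of the falls than of the rises were called in all of 5 fits compared gene by gene. Of the 4417 falls, 3889 (88.0%) were also called as falls by TMM scaling, by edgeR's quasi-likelihood test and DESeq2 on recovered reads, and by a limma fit over all 7 stages. Of the 8378 rises, 2461 (29.4%) were called in all 5 fits. No gene was called in opposite directions by any pair of these fits (0 genes). The median log2 change of all genes tested was 0.33 under the deposited scaling and 0.14 with TMM, a shift of -0.19. Rises made up 65.5% of the calls, 55.5% of 12328 with TMM, 53.1% of 11776 with edgeR and 49.9% of 12242 with DESeq2. With 1 estimate of spread over all 7 stages the count was 7260, with 3332 rises and 3928 falls. The quiet genes spread more between replicates at some of the other stages that enter this fit. In early desiccation they averaged 0.193, 0.170 and 8.97 in replicates 1 to 3. In late desiccation they averaged 8.60, 6.67 and 0.831, the last in a replicate of 1 run with 2.53 M reads. The part of this spread in the lower count was not tested.

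**Figure D1:**
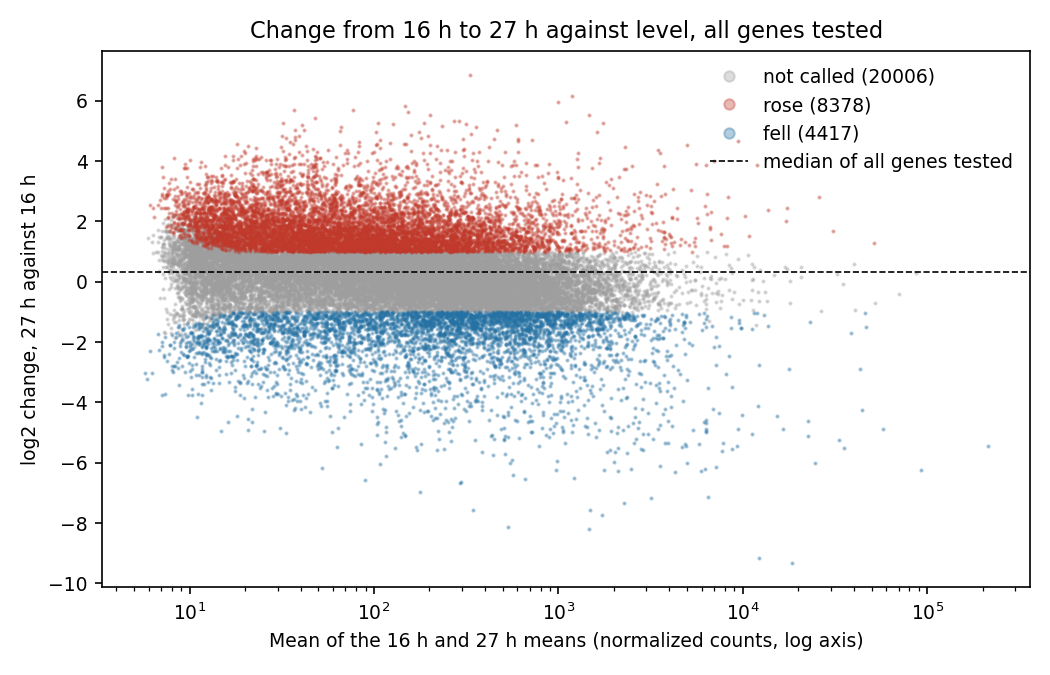
Log2 change from 16 h to 27 h (vertical axis) against the mean of both stage means in normalized counts (horizontal log axis) for the 32801 genes tested, coloured by call, with the median of all genes as a dashed line at 0.33. Falls reach further from the line than rises, down to -9.33 against up to 6.85, and the gene farthest to the right is a fall.

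Most changes were moderate, and the falls had the longer tail. Changes of 2-fold to 4-fold accounted for 5682 rises (67.8%) and 2840 falls (64.3%). Changes of 16-fold or more were seen in 147 rises (1.8%) and 268 falls (6.1%). The median log2 change was 1.65 among the rises and -1.67 among the falls. Replicates of the stages did not overlap for 8221 of the rises (98.1%) and 4377 of the falls (99.1%), which the call on the same values favours. Of all genes tested, 42.1% lay wholly higher and 26.0% wholly lower at 27 h.

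By difference in normalized counts, the transcripts that lost most were the most abundant of the seed, and this ranking favours abundant genes. On the log2 scale the largest fall was -9.33, in another gene. Glyma09g31740, on chromosome 9 by the numbering of its ID, stood at 439014, 336783 and 464961 normalized counts in 16 h replicates 1 to 3 and at 3549, 17103 and 13832 at 27 h. The groups are far apart, with 27 h replicate 1 the lowest. Its log2 change was -5.44 ± 0.54 (SE, limma adjusted p = 5.15e-05). At 16 h it was the first gene in rank and held 2.97% ± 0.383 (SD, n = 3) of the normalized total, and at 27 h it ranked 43 with 0.0991% ± 0.0597. It had been the most abundant gene at each of the other 5 stages too, with means from 355352 in early desiccation to 721372 at 3 h, where its replicates ran from 341403 to 1113744.

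Glyma07g10030, on chromosome 7 by its ID, followed the same course. It stood at 185834, 148528 and 213833 normalized counts at 16 h and at 660.1, 4196 and 4887 at 27 h. The replicates do not overlap, and 27 h replicate 1 is again the lowest. Its log2 change was -6.24 ± 0.73 (SE, limma adjusted p = 0.000317), and its rank went from 2 to 316. At the other stages it held means from 134987 in dry seed to 334096 at 3 h.

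The 2 genes with the largest gains differed in their past, the first abundant throughout and the second with stage means under 50 before 16 h. Glyma17g13730, on chromosome 17 by its ID, stood at 28891, 30946 and 29353 normalized counts at 16 h and at 62872, 80383 and 77546 at 27 h. All 27 h replicates lie above all 16 h replicates. The log2 change was 1.30 ± 0.19 (SE, limma adjusted p = 0.000157), and the gene became the second in rank, with 0.640% ± 0.0643 (SD, n = 3) of the total. It had means of at least 13470 at every other stage.

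Glyma02g03280, on chromosome 2 by its ID, was low up to 3 h. It stood at 7018, 6642 and 5544 normalized counts at 16 h and at 38541, 49768 and 48052 at 27 h, without overlap. The log2 change was 2.83 ± 0.18 (SE, limma adjusted p = 4.01e-07). Its means at the other 5 stages lay between 15.5 in dry seed and 49.3 in mid desiccation, and it ranked 22998 at 3 h, 181 at 16 h and 6 at 27 h.

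**Figure D2:**
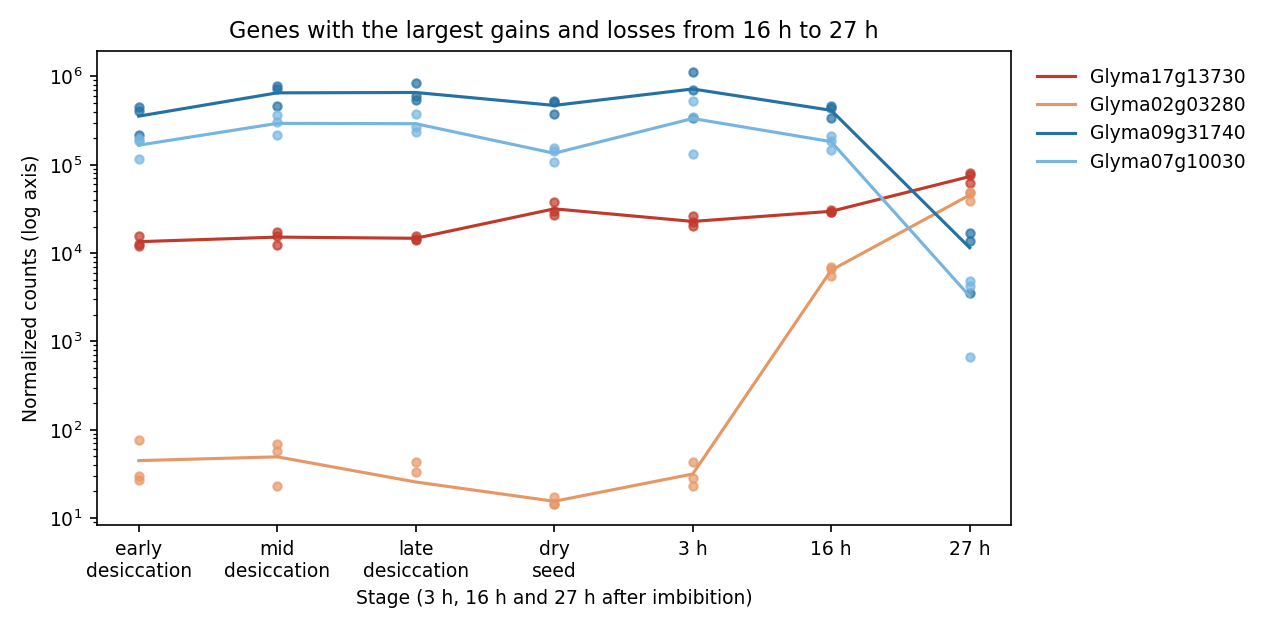
Normalized counts (vertical log axis) of the 2 genes with the largest gains and the 2 with the largest losses in normalized counts, at all 7 stages (horizontal axis); points are replicates and lines join stage means. Both falling genes stay at 107599 or more until 16 h in every replicate and lie below 20000 at 27 h. Glyma02g03280 climbs from a mean of 31.5 at 3 h to 45453 at 27 h. Its late desiccation replicate 3 is at 0, in a run where 1 read was worth 8.68 normalized counts, and is not drawn.

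The wider set behind these genes showed the same contrast, under the same ranking, which favours abundant genes. The 12 genes with the largest losses had 16 h means of 43600 to 413586 and 27 h means of 836 to 24208, with falls of up to 6.24 on the log2 scale. All 12 had their lowest mean of the 7 stages at 27 h. At the 5 earlier stages none of these 12 genes was below 40893, and none had its highest mean at 16 h. The 12 genes with the largest gains had 16 h means of 704 to 29730 and 27 h means of 11725 to 73600, with rises of 1.30 to 4.68 on the log2 scale. All 12 had their highest mean at 27 h. Of these, 6 were below 150 normalized counts at all of the other 5 stages, and 4 were at 1000 or more at all of them. The fit over all 7 stages called all 12 losses and 11 of the 12 gains.

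Few transcripts accounted for much of the loss, while the gain was spread over more genes. The falling genes together lost 4.45 M normalized counts between the stage means, and the 10 largest losses made up 24.7% of this and the 100 largest 48.6%. The rising genes gained 2.15 M, with 11.2% in the 10 largest gains and 32.2% in the 100 largest. The summed loss and gain depend on the scaling and are not amounts of RNA. The 10 largest losses held 8.76%, 7.35% and 8.96% of the total in 16 h replicates 1 to 3 and 0.435%, 0.572% and 0.641% at 27 h. The 10 largest gains went from 0.519%, 0.609% and 0.505% to 2.50%, 2.98% and 2.81%. These genes were picked for their change between these stages, so the shares describe its size and carry no test.

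Over all calls, the falling genes held 42.7%, 37.5% and 41.8% of the normalized total in 16 h replicates 1 to 3 and 9.74%, 10.4% and 11.4% at 27 h. The rising genes held 5.84%, 7.50% and 5.80% at 16 h and 26.9%, 26.9% and 25.6% at 27 h. Replicate 2 at 16 h had the lowest share of falling genes and the highest share of rising genes among the 16 h replicates. At the earlier stages, which played no part in choosing the genes, the falling set held between 50.9% (dry seed) and 55.6% (mid desiccation) of the total, and the rising set between 2.97% (3 h) and 3.52% (early desiccation). 

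**Figure D3:**
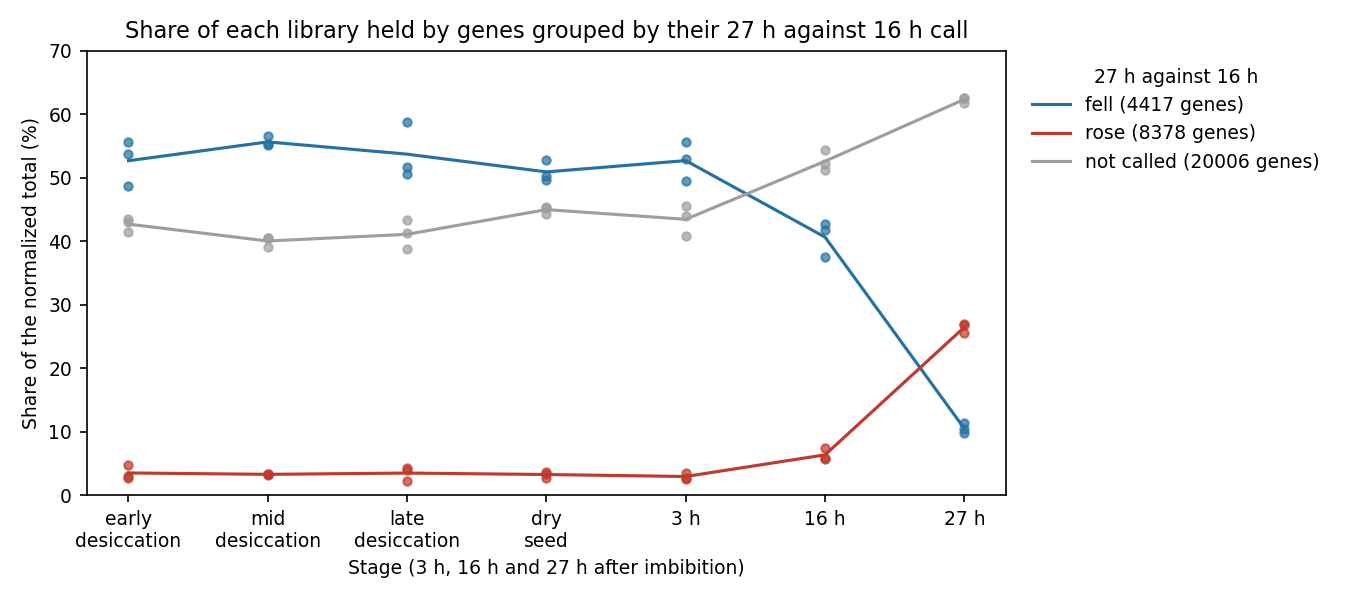
Share of the normalized total in percent (vertical axis) held by the genes that rose, fell or were not called between 16 h and 27 h, at all 7 stages (horizontal axis); points are replicates and lines join means. The falling set lies at 50.9% to 55.6% on average until 3 h, 40.7% at 16 h and 10.5% at 27 h, and the rising set goes from 6.38% at 16 h to 26.5% at 27 h.

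Rises and falls lay at different levels before the interval. At 3 h, a stage whose libraries are not in the comparison, 433 of the genes tested had a mean of 5000 or more, and of these 71.4% fell by 27 h and 0.693% rose. Of the 2790 genes between 1000 and 5000, 41.6% fell and 1.79% rose. Of the 7812 between 200 and 1000, 19.0% fell and 4.70% rose. Between 50 and 200 the balance turned, with 10.1% of 8257 genes falling and 19.7% rising under the deposited scaling. In this class TMM scaling gave 13.4% rises and 12.9% falls, while edgeR and DESeq2, which change both scaling and test, gave more falls (13.2% and 14.8%) than rises (12.8% and 11.3%). Between 10 and 50, 4.88% of 10974 genes fell and 43.3% rose; the share of rises was 11.8% in the fit over all 7 stages and at least 32.1% in the other fits. Below 10 at 3 h, 62.5% of 2535 genes rose (14.0% in the fit over all 7 stages), but these genes entered the test only by reaching 10 at 16 h or 27 h, which favours rises. The quiet genes averaged 1.28, 2.97 and 4.17 normalized counts in 3 h replicates 1 to 3. The part of this signal in the low classes was not tested.

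Dry seed gave nearly the same picture. Of 470 genes with a dry seed mean of 5000 or more, 68.7% fell and 1.28% rose, and of 10369 between 10 and 50, 5.20% fell and 42.5% rose. In dry seed replicates 1 to 3 the quiet genes averaged 0.355, 3.25 and 2.35 normalized counts. Across the genes tested, Spearman's rho between the level at an earlier stage and the log2 change lay between -0.54 (late desiccation) and -0.59 (3 h). The genes of a stage share the same 3 replicates. The filter on 16 h and 27 h also favours rises among genes below 10 at the earlier stage. Of the 1927 genes with a mean of 1000 or more at all 6 stages before 27 h, 925 (48.0%) fell and 26 (1.35%) rose, and the remainder were not called. These stages include 16 h, a value that the calls compare, which favours falls in this set.

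**Figure D4:**
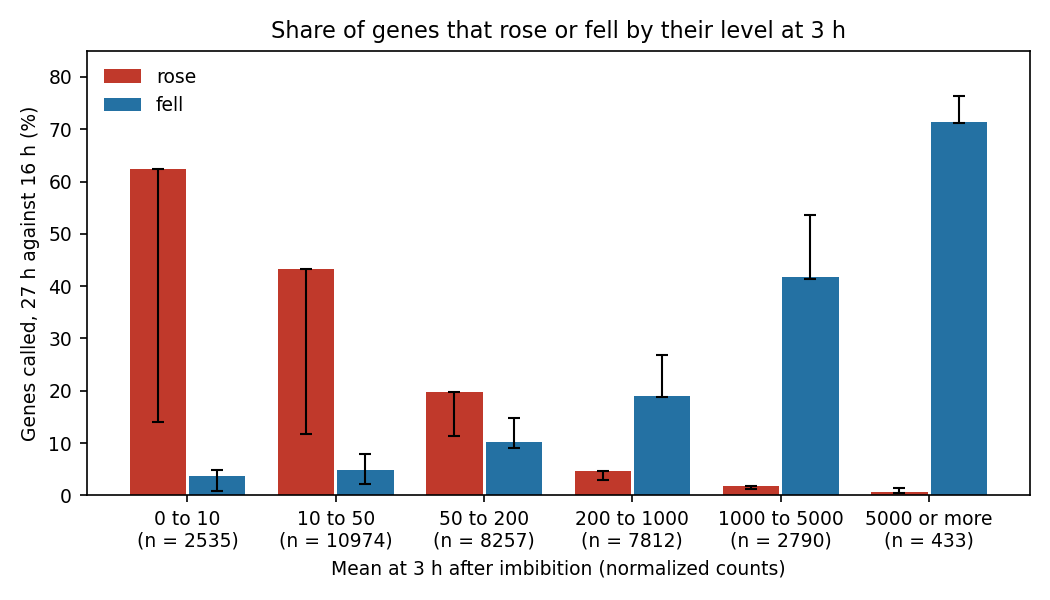
Percent of genes that rose (red) or fell (blue) between 16 h and 27 h (vertical axis) by their mean at 3 h after imbibition in normalized counts (horizontal axis, number of genes under each class). Whiskers span the lowest and highest share over 5 fits (deposited scaling, TMM, edgeR, DESeq2 and all 7 stages); falls go from 3.63% in the lowest class to 71.4% in the highest, and rises from 62.5% to 0.693%.

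Most genes that fell had their highest level before 16 h, though the call itself leaves none with a peak at 27 h. Among genes not called, 8.19% had their highest mean at 16 h and 29.8% at 27 h. Of the 4417 falls, 598 (13.5%) had their highest mean at 16 h, while 1153 (26.1%) peaked in dry seed, 1041 (23.6%) at 3 h, 701 (15.9%) in mid, 497 (11.3%) in early and 427 (9.7%) in late desiccation. From early desiccation to dry seed their median level stayed between 445 and 478. It was 492 at 3 h, then 359 at 16 h, and 96.0 by 27 h. The mean at 27 h was the lowest of all stages for 3985 of them (90.2%), a place that the call itself favours. Their 27 h mean was below 10 for 562.

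Genes that rose were mostly at their highest at 27 h. This held for 7154 of the 8378 rises (85.4%), though the call itself favours a peak at 27 h and leaves none at 16 h. Dry seed had a median level of 22.8 for these genes, 3 h had 23.7, 16 h had 31.9 and 27 h had 107. Of the rises, 1779 had a 16 h mean below 10, and 258 had means below 10 at all 6 earlier stages. Of these 258, 11 reached a 27 h mean of 100 or more, the highest being 247. Another 817 rises (9.8%) had their highest mean in late desiccation, where quiet genes averaged 8.60 and 6.67 normalized counts in replicates 1 and 2. Replicate 3 of that stage, with 2.53 M reads, had 22606 genes at 0. The part of this quiet-gene signal in that peak was not tested. Among the 2461 rises called in all 5 fits, 95.4% peaked at 27 h, and their median level went from 39.2 at 3 h and 70.3 at 16 h to 286 at 27 h.

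Some genes passed the filter on low values through 1 stage alone. At 10 or more in all 27 h replicates and in none at 16 h stood 1102 genes, of which 981 were called as rises, 11.7% of all rises. The reverse held for 440 genes, with 395 called as falls, 8.9% of all falls. Such genes had to differ. At 10 or more in all 6 replicates stood 26461 genes, of which 5737 (21.7%) rose and 3600 (13.6%) fell. At the far end 1 rise had 0 reads in all 16 h replicates, and 2 falls had 0 reads in all 27 h replicates.

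The leading transcripts of the seed were replaced in part over these 11 h. Of the 100 leading genes at 16 h, 44 were also among the 100 leading at 27 h. Of the 100 genes that led at 16 h by mean, 65 fell, 2 rose and 33 were not called. Of the 100 genes that led at 27 h, 39 had risen, 10 had fallen and 51 were not called. Of all genes tested, 13.5% fell and 25.5% rose. Leaders at 16 h were picked by values that the calls compare, which favours falls among them, and leaders at 27 h likewise favour rises. Of the 1000 leading genes of each stage, 507 were shared. The most abundant gene of all 3 replicates at 16 h was Glyma09g31740. At 27 h the leading place went to Glyma17g13730 in replicate 2 and, in replicates 1 and 3, to a gene that was not called (limma adjusted p = 0.395). That gene held 64531, 81698 and 79796 normalized counts at 16 h and 148175, 61989 and 85943 at 27 h, with its highest value in 27 h replicate 1.

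The RNA was spread over more genes at 27 h. The number of most abundant genes that together held 50% of the normalized total was 1332, 1680 and 1393 in 16 h replicates 1 to 3 and 2599, 2371 and 2407 at 27 h. The groups do not overlap, and the means differ by 991 genes. At the other stages the mean of this number was between 493 (mid desiccation) and 773 (dry seed), so 16 h and 27 h had the highest means. The 1000 most abundant genes held 44.2% ± 2.01 of the total at 16 h and 35.3% ± 0.653 at 27 h (SD, n = 3). The normalized total depends on the scaling and does not measure the amount of RNA. It was 13.9 M ± 0.594 at 16 h and 11.5 M ± 0.339 at 27 h. Each of these differences had an exact permutation p of 0.1 (two-sided, 3 against 3), which is the smallest this design allows, and an adjusted p of 0.133 over 4 measures. Genes with at least 10 normalized counts numbered 30303 ± 1878 at 16 h and 33258 ± 1546 at 27 h (SD, n = 3; exact permutation p = 0.2, adjusted p = 0.2), and here the groups overlap.

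**Figure D5:**
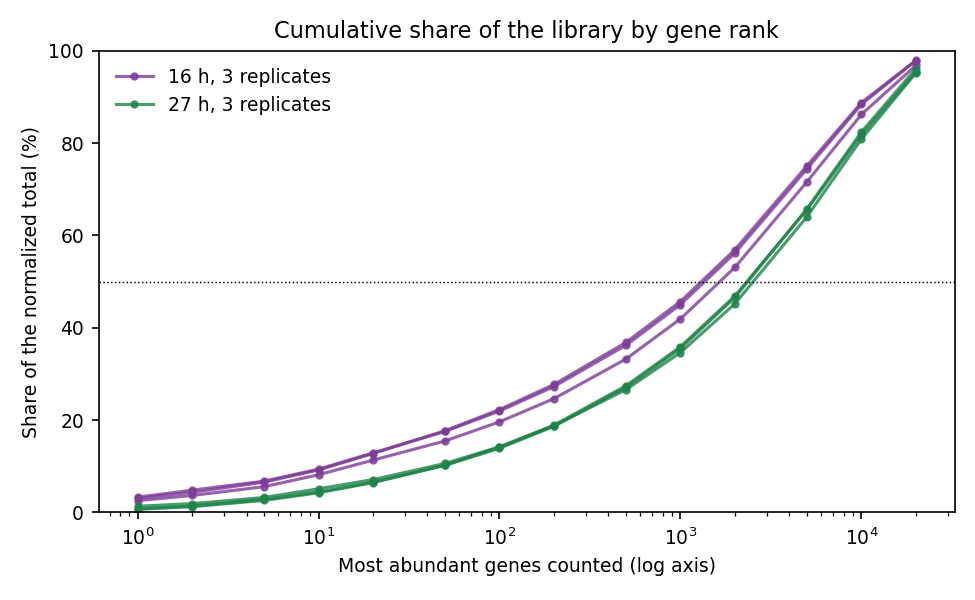
Share of the normalized total in percent (vertical axis) held by the most abundant genes of a replicate, from the first gene to the first 20000 (horizontal log axis); each line is 1 replicate, purple at 16 h and green at 27 h. The 27 h lines lie below the 16 h lines and cross 50% (dotted) at 2371 to 2599 genes, against 1332 to 1680 at 16 h.

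Calls lay on all 20 chromosomes by the numbering of the IDs, at similar rates. Over 32698 tested genes with a chromosome in the ID, the share that rose ran from 23.0% on chromosome 5 to 29.0% on chromosome 18, and the share that fell from 11.5% on chromosome 15 to 15.4% on chromosome 17. Neighbours in ID order moved together somewhat more often than other genes. The next tested gene also rose for 31.3% of the rises, against 23.6% for other genes, and also fell for 20.3% of the falls, against 12.4%. Among rises there were 58 uninterrupted runs of 5 or more neighbours, holding 315 genes, and among falls 11 runs, holding 58 genes. With 25.5% of all genes tested rising and 13.5% falling, some runs arise without any grouping, and their expected number was not computed. The longest rising run had 9 genes on chromosome 2, with log2 changes of 1.04 to 2.88 and 27 h means of 24.5 to 947. The longest falling run had 8 genes on chromosome 5, with log2 changes of -3.48 to -1.13 and 16 h means of 24.3 to 1675. Near-identical copies and overlapping genes can share reads, the sources used here do not say whether counting used strand, and the part of shared reads in these runs was not tested.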

How the data were processed

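Illumina cDNA libraries (TruSeq RNA kit) were made from column-purified, DNase-treated total RNA, per the labels' protocols. Trimmomatic 0.38 and HISAT2 were used, per the submitters' processing notes; counting tool, annotation and genome build: not given in the sources used here. Each deposited signal value belongs to 1 gene and 1 run and is a read count that the authors divided by the library's size factor (DESeq-normalized counts, per the table's name). In each library 100% of values were whole multiples of 1 step within 0.001 reads, so reads were recovered. Of 46 columns 45 matched a sample label; the other 1 was not used. Runs were averaged per replicate. limma 3.58.1 in R 4.3.3 was fitted to log2(value + 1) of the 6 replicates of 16 h and 27 h, with variance trend and robust moderation, and Benjamini-Hochberg adjustment over all genes tested. The code was checked on simulated counts in which few genes changed, as many up as down. This check does not bear on the scaling where many genes change. On the recovered reads, the quasi-likelihood test of edgeR 4.0.16 called 11776 genes and DESeq2 1.42.0 called 12242, as alternatives. Composition measures and figures used Python 3.11.15, numpy 2.4.6, pandas 2.3.3, scipy 1.17.1 and matplotlib 3.10.9. Spread was taken from the compared stages because replicate spread differs between stages. Genes named are called, do not overlap between stages and have the largest difference of stage means in normalized counts. The comparison, tests and lists were chosen with earlier results of these data known; 17 gene lists could not be applied without gene names.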

Additional observations from a re-analysis of the deposited data

How the results depend on the processing

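The count of changed genes stayed within 1.5 times of 12795 in 14 of 18 alternatives. The others were 7260 with all 7 stages in the fit (3332 rises), 4341 when genes averaging under 200 were left out (1968 rises, 2373 falls, fewer genes tested), 20202 without a fold threshold (12572 rises, 7630 falls) and 3987 at an adjusted p under 0.01 and at least 4-fold (2450 rises, 1537 falls). Leaving out each replicate gave 11641 to 14038 calls, 7462 to 9591 rises and 4179 to 4462 falls. Leaving out replicate 2 of both stages, chosen after seeing the data, gave 13320. With the replicate number as a block, 12909 genes were called; same-numbered replicates deviated together at r = -0.08, 0.14 and 0.21, so the numbers were not taken to pair the samples, and not every replicate correlated best with its own number. The 4 named genes kept direction and call in all 64 alternatives (highest adjusted p = 0.0193). They were picked from these values as called, without overlap and with the largest differences, which favours this. Leaving out replicates could not change their direction. None of 36 alternatives reversed a composition measure (0 reversed), but many of them could not. TMM scaling, added after seeing the data, gave -4.16 M for the normalized total. Dividing each library by 1 number, it cannot change the number of genes holding 50% or the share of the 1000 most abundant. Nor can leaving out a replicate reverse a measure whose groups do not overlap. Leaving out each replicate gave differences of 921 to 1097 genes holding 50% of the total, 2376 to 4039 genes at 10 or more, -2.74 to -2.18 M in the total and -10.0 to -8.12 percentage points in the 1000 most abundant genes. Depth limits the low end: 3 reads in a replicate correspond to 0.485 to 0.780 normalized counts by its pooled reads, counting error only. Runs were averaged with equal weight, so a read in a shallow run counts for more, and this range understates the counting error. In 16 h replicate 1, before averaging, 1 read was worth 2.25 normalized counts in run 1 and 0.177 in run 2.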
